A study of Mus musculus with 16 samples.

Results

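Cytochrome bc1 (complex III), cytochrome c oxidase (complex IV) and ATP synthase are the last machines of oxidative phosphorylation in the inner mitochondrial membrane. Complex III passes electrons from ubiquinol to cytochrome c, complex IV passes them from cytochrome c to oxygen, and both pump protons whose return through ATP synthase drives the making of ATP. Most of their subunits are encoded in the nucleus, a few in mitochondrial DNA, and neurons draw on this system for ion pumping and synaptic transmission. The nuclear genes described here were chosen by symbol: 8 named Uqcr genes of complex III, 10 named Cox genes of complex IV and all 17 genes whose symbol begins with Atp5. These 35 genes are a small part of the 21864 symbols with a protein-coding transcript, and all 35 passed the filter on low counts.

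RNA was sequenced from the CA1 subfield of the hippocampus of 8 mice lacking Fmr1 (Fmr1-KO) and 8 wild-type mice (WT, given as C57BL/6). The Fmr1 product, FMRP, binds mRNAs and holds back their translation. All 16 animals, of both genotypes, had served as yoked controls in active place avoidance, a spatial task in which a rotating arena carries the animal toward a shock zone. The labels do not give the age, the sex, the background strain of the Fmr1-KO mice, or whether the genotypes were littermates.

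The labels held for the targeted gene. Fmr1 was measured at 7.001, 18.3 and 26.4 CPM (lowest, median and highest) in Fmr1-KO and at 35.5, 60.1 and 95.99 CPM in WT, and the genotypes did not overlap. CPM is the normalised read count of a gene relative to the protein-coding counts of its library, after TMM scaling between libraries. Its log2 fold change, Fmr1-KO over WT, was −1.80 (SE 0.22, edgeR, Benjamini-Hochberg adjusted p = 0.000315 over all genes tested). The CA1 markers fixed for the tissue were all present and summed to 3118 ± 57.7 CPM in Fmr1-KO, against to 3140 ± 167 CPM in WT libraries (SD, n = 8 of each genotype). WT replicates 3 and 6 stood apart, with 878484 and 515103 total counts against 1480966 to 3275003 in the other 14 libraries. Protein-coding transcripts took 80.7% and 58.4% of their counts, against 87.6% to 91.8% elsewhere. The 35 genes together held 940 to 13363 counts per library, so single genes rested on few counts in the shallow libraries.

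Of the 35 genes, 29 had a promoter in the RefSeq table of GRCm38.p6, in 33 windows of 250 bases before to 50 bases after a transcription start. Transcription factors of the NRF1 and ETS (GABP) families are known regulators of nuclear respiratory genes, so their letters were searched on both strands. The NRF1 letters GCGCANGCG (reverse complement CGCNTGCGC) were present in 30.3% of the members' windows and in 6.25% of all 32851 windows. The ETS letters CCGGAAG (reverse complement CTTCCGG) were also present in 30.3% of the members' windows and in 8.86% of all windows. Both sets of letters occurred in 5 genes, Atp5h, Atp5k, Atp5l, Cox6a1 and Uqcr11. The promoters of 1 gene of each complex with both, and of Atp5e with the ETS letters only, are shown to let the arrangement be read. Capitals mark the NRF1 and ETS letters, and every sequence is read 5′ to 3′ on the strand of the gene, which was the minus strand in all of them.
Uqcr11, chr10:80406772-80407071: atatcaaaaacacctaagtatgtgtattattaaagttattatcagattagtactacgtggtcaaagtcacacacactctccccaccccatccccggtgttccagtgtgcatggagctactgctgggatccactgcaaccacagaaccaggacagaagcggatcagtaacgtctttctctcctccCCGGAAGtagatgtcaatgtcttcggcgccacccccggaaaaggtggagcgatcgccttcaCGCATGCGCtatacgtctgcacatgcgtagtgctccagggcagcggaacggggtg
Cox6a1, chr5:115348909-115349208: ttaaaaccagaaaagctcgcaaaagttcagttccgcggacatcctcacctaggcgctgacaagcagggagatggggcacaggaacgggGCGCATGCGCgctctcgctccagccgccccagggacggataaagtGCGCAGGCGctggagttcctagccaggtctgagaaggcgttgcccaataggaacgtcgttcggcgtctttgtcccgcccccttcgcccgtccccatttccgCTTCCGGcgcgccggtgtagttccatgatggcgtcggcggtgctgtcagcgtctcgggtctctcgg
Atp5h, chr11:115419870-115420169: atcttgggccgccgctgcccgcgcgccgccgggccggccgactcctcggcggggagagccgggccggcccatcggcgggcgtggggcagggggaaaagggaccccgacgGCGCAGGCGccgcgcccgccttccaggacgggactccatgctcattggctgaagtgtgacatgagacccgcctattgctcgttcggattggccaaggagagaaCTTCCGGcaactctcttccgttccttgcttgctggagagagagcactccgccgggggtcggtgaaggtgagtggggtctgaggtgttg
Atp5e, chr2:174464052-174464351: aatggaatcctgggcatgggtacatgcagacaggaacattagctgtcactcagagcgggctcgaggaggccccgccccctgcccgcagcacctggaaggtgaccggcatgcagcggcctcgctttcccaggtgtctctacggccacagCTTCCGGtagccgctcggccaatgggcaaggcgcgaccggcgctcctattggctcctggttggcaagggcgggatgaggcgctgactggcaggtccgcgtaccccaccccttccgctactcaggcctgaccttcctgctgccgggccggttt

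In Uqcr11 the ETS letters began 66 bases and the NRF1 letters 5 bases before the start. In Cox6a1 the first NRF1 letters began 162 bases and the ETS letters 16 bases before the start, and a palindromic stretch there holds overlapping NRF1 matches on both strands. In Atp5h they began 141 and 38 bases before the start, with NRF1 again the farther. In Atp5e the ETS letters began 102 bases before it, and the NRF1 letters were not in the window. The YY1 letters AAGATGGC stood in 15.2% of the members' windows and 2.75% of all windows. The Sp1 letters GGGCGG stood in 27.3% against 35.7%, and the TATA letters TATAAA in 3.03% against 13.6%. The median log2 fold change was −0.21 for the 5 genes with both NRF1 and ETS letters and −0.17 for the 14 genes with a promoter and neither. A match of letters describes a sequence and not a bound site.

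By CPM, most of the nuclear genes of the 3 complexes were measured at slightly lower levels in Fmr1-KO, and none of the 35 passed the test. Of the 35 genes, 32 had a negative log2 fold change, with a median of −0.21, while 50.4% of all 10518 genes tested were lower and their median was −0.00. The share was higher among other genes with short transcripts, 87.8% under 600 bases and 77.8% at 600 to 800 bases. Of the 35 genes, 22 have transcripts under 800 bases. The adjusted p of the 35 genes was 0.685 or above in the edgeR test, so 0 of 35 passed the threshold of 0.05, against 0.019% of all genes tested (2 genes, Fmr1 and Ccnd2). At an unadjusted p under 0.05 there were 3 of the 35, all lower (Cox7a2, Cox7b and Atp5e), against 3.46% of all genes that were lower at that level. DESeq2 also called 0 of the 35, with 3 at an unadjusted p under 0.05 and lower, against 4.36% of all genes by DESeq2. Limma-voom with quality weights called 0, with 18 lower at that level, against 6.2% of all genes in that fit. The ranges of the genotypes overlapped for all 35 genes. In bulk tissue, fewer cells of a type and less RNA per cell cannot be told apart.

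**Figure D1:**
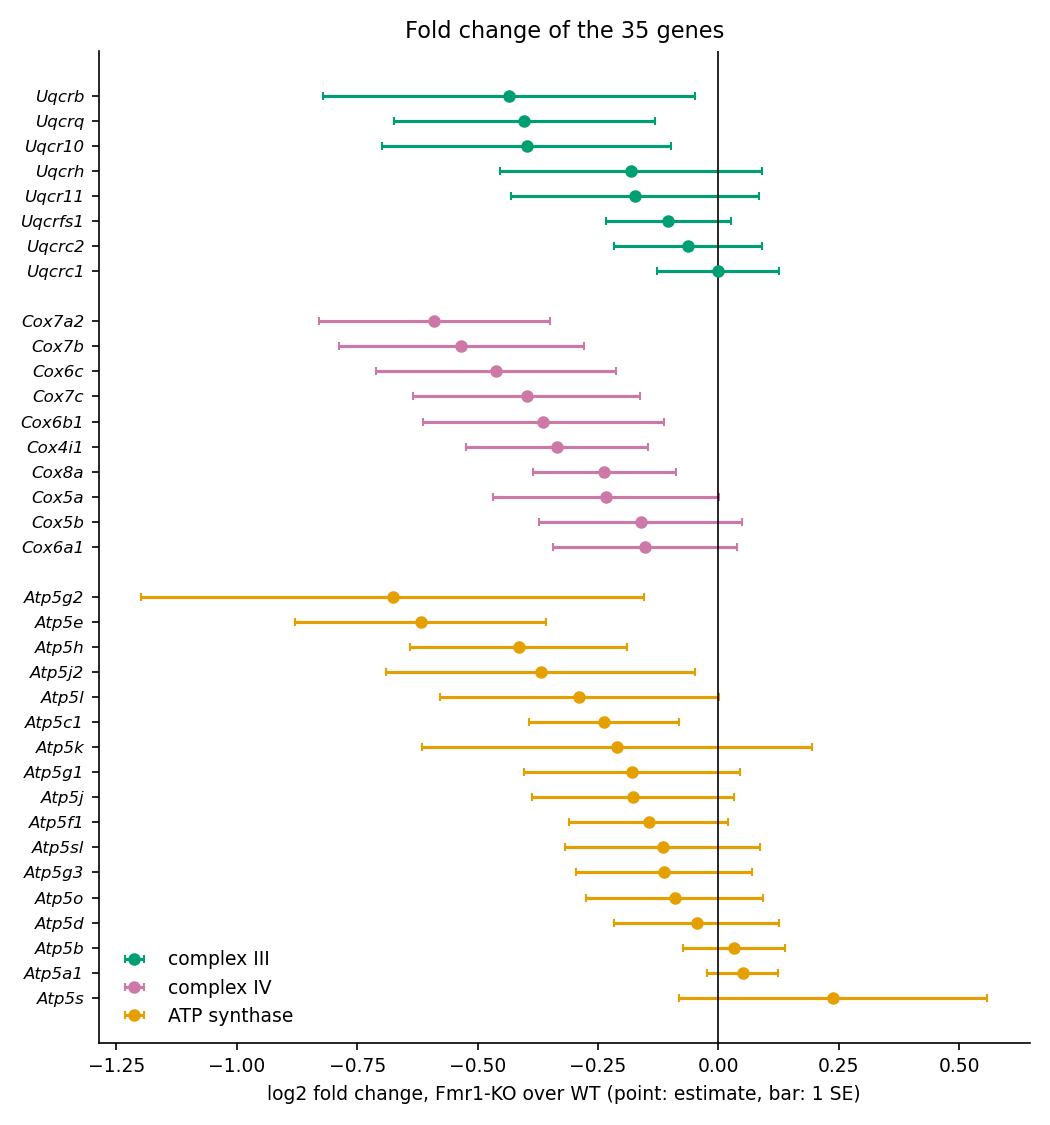
Log2 fold change, Fmr1-KO over WT, of the 35 genes by complex, with 1 SE (8 libraries per genotype). All but Atp5s, Atp5a1 and Atp5b lay at or below 0, with Uqcrc1 at −0.00, and the fit with the share of short transcripts as a covariate left 20 of the 35 below 0.

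Summed over its 10 genes, complex IV had the lowest level in Fmr1-KO relative to WT. It reached 562, 643 and 1297 CPM (lowest, median and highest) in Fmr1-KO and 684, 894 and 1281 CPM in WT. Mean and SD over 8 libraries were 759 ± 247 CPM for Fmr1-KO and 933 ± 236 CPM for WT, a ratio of 0.813. In 7 of the 8 Fmr1-KO libraries the sum lay below the WT median. Fmr1-KO replicate 5 was the exception, and it had the highest complex IV sum of all 16 libraries. Without it the ratio of the means was 0.731, and without WT replicate 8 it was 0.859.

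The 8 genes of complex III summed to 439, 466 and 714 CPM in Fmr1-KO and to 362, 502 and 711 CPM in WT. Their means were 505 ± 95.7 CPM in Fmr1-KO, against 545 ± 114 CPM in WT, a ratio of 0.926 that is well inside the spread of either genotype. The 17 Atp5 genes summed to 1847, 2156 and 2978 CPM in Fmr1-KO and to 1758, 2188 and 2787 CPM in WT. Their means were 2230 ± 345 CPM in Fmr1-KO, against 2292 ± 354 CPM in WT, a ratio of 0.973, which was 1.004 without WT replicate 8 and 1.01 with transcripts of every type counted and scaled by library totals. Atp5a1 and Atp5b alone supplied most of that sum. Their transcripts are of 2475 and 1916 bases, while those of the complex IV genes are of 504 to 1001 bases. The order of the complexes therefore cannot be told apart from transcript length.

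**Figure D2:**
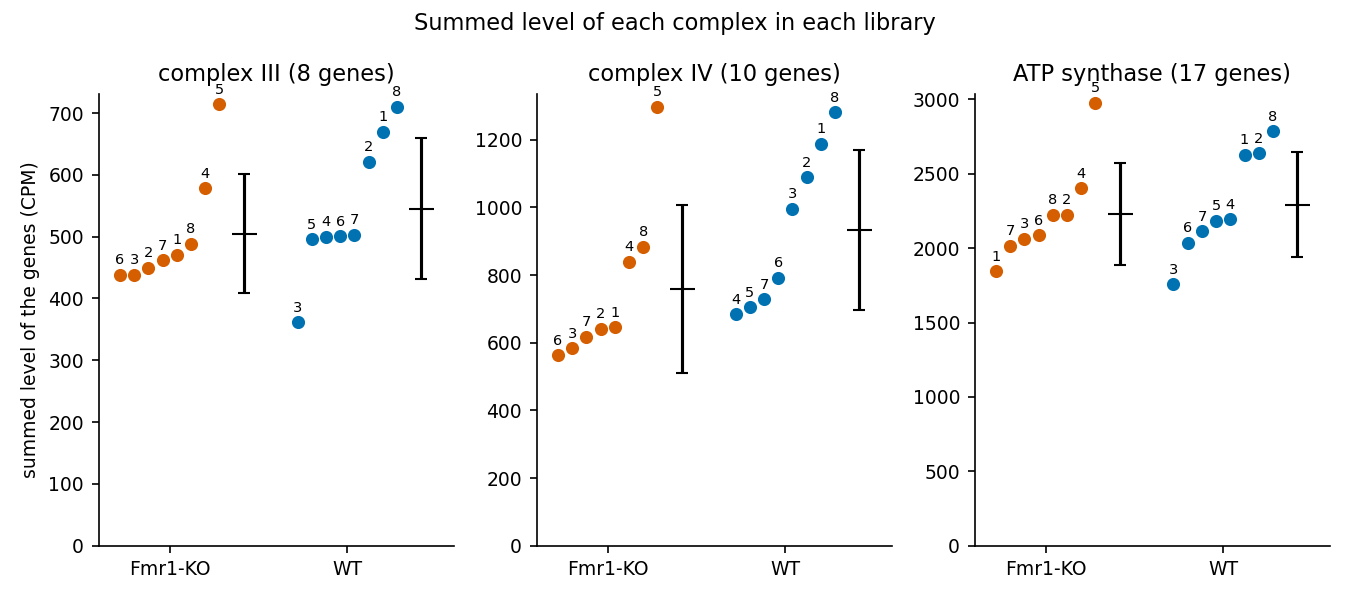
Summed CPM of the genes of each complex in each library, Fmr1-KO left of WT, with the replicate number at each point and the mean and SD (n = 8) as a black bar. Fmr1-KO replicate 5 and WT replicates 1, 2 and 8 are the highest libraries in all 3 panels, and the genotypes overlap in each.

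In each complex the SD among libraries of a genotype exceeded the difference between the genotype means, and the high libraries were much the same from gene to gene. Fmr1-KO replicate 5 was the highest library for 11 of the 35 genes, WT replicate 8 for 12 and WT replicate 1 for 7. WT replicate 3, one of the shallow libraries, was the lowest for 14 genes and the highest for 2. Leaving out single libraries moved the medians accordingly. Without Fmr1-KO replicate 5 the median log2 fold change was −0.33 for complex III, −0.51 for complex IV and −0.27 for ATP synthase, with 11 genes lower at an unadjusted p under 0.05, against 4.21% of all genes in that fit, and 0 past the threshold. Without WT replicate 8 the medians were −0.07, −0.25 and −0.08, and 29 of the 35 genes were lower. With all libraries they were −0.18, −0.35 and −0.18. Leaving out Fmr1-KO replicate 1, 3, 4 or 6 or WT replicate 1 also moved the median of complex III or ATP synthase by more than 1.5 times, to values between −0.29 and −0.10. Without WT replicates 3 and 6 together, 33 genes were lower, with a median of −0.30.

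**Figure D3:**
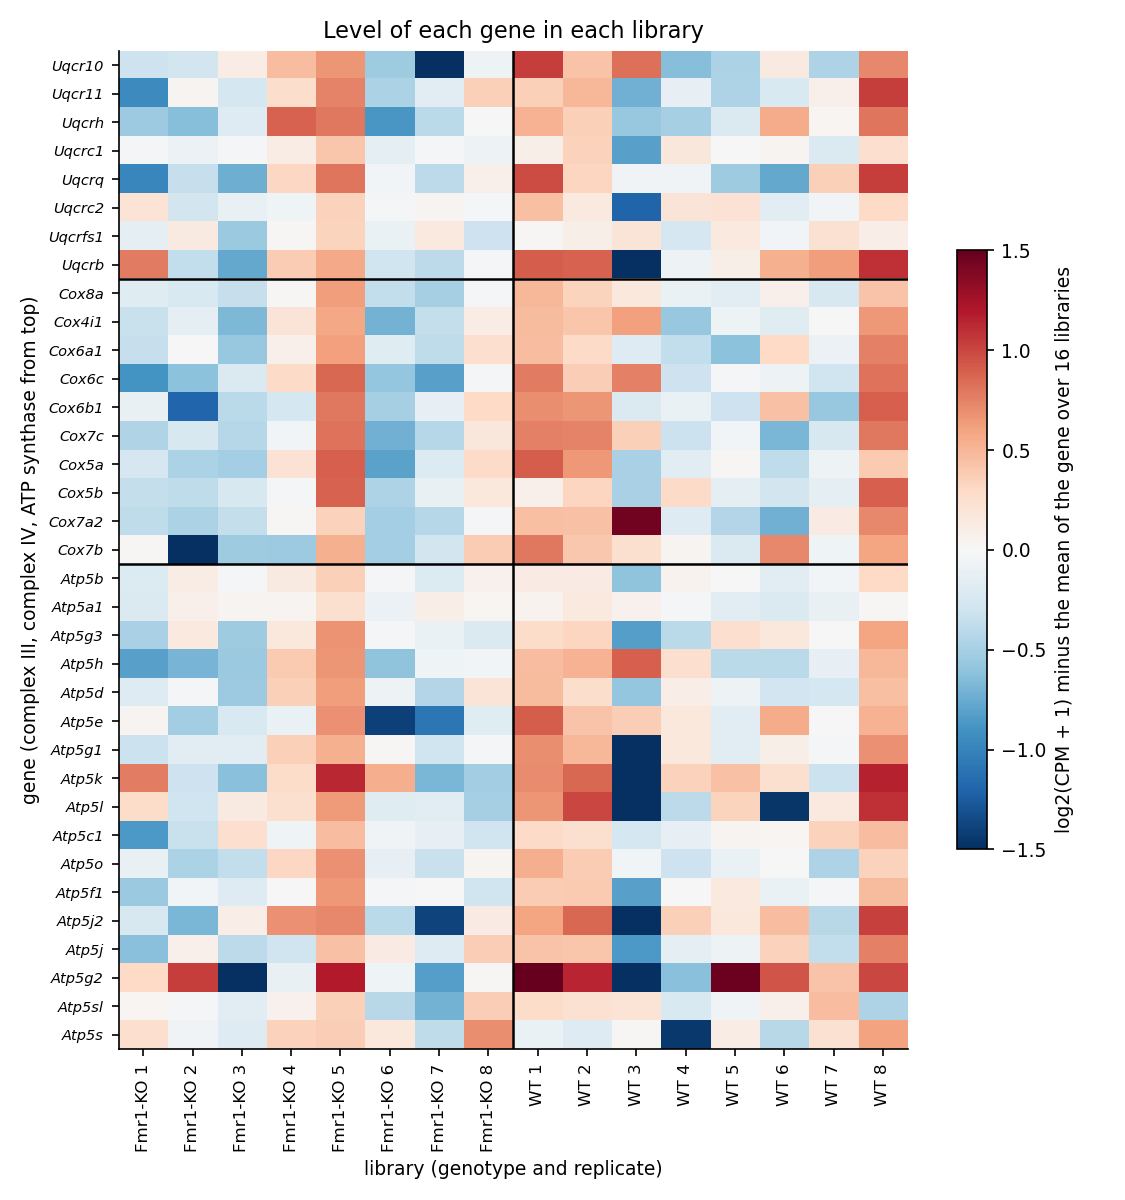
Level of each of the 35 genes (rows, by complex) in each library (columns, Fmr1-KO left of WT), as log2(CPM + 1) minus the mean of the gene over the 16 libraries. The columns of Fmr1-KO replicate 5 and WT replicates 1, 2 and 8 are mostly above the mean in all 3 complexes, and that of WT replicate 3 is mixed.

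Within complex III, the 3 genes with the smallest p encode small subunits around the catalytic core. Uqcrq, a subunit at the ubiquinone-binding side, had 18.3, 32.3 and 65.1 CPM (lowest, median and highest) in Fmr1-KO and 21.3, 40.9 and 77.0 CPM in WT. Most Fmr1-KO libraries lay under the WT median, with wide overlap. Its log2 fold change was −0.40 (SE 0.27, adjusted p = 0.793). By TPM, which weighs each transcript by its effective length, the Uqcrq mean was 260 ± 97.4 in Fmr1-KO and 255 ± 147 in WT, so the order of the means differed between units.

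Uqcr10, a small subunit that contacts cytochrome c1 and the iron-sulfur protein, had 9.94, 28.6 and 51.8 CPM in Fmr1-KO and 20.4, 39.7 and 67.5 CPM in WT. Fmr1-KO replicate 7 was the lowest library and WT replicate 1 the highest. The log2 fold change was −0.40 (SE 0.30, adjusted p = 0.818). Uqcrb, a ubiquinone-binding subunit, had 8.05, 12.8 and 25.3 CPM in Fmr1-KO and 0, 22.0 and 32.0 CPM in WT, with no count at all in WT replicate 3. In 7 Fmr1-KO libraries Uqcrb was below the WT median, and its log2 fold change was −0.43 (SE 0.39, adjusted p = 0.857).

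The larger subunits of complex III lay closer to 0. Uqcrc1 and Uqcrc2 are the core proteins, which face the matrix. Uqcrc1 averaged 159 ± 21.3 CPM in Fmr1-KO, against 158 ± 34.2 CPM in WT, and its log2 fold change of −0.00 changed sign under several settings. Uqcrc2 had a log2 fold change of −0.06 (SE 0.15). Uqcrfs1, the Rieske iron-sulfur protein that shuttles the electron to cytochrome c1, stood at 71.6 ± 13.7 CPM in Fmr1-KO, against 76.7 ± 7.93 CPM in WT (log2 fold change −0.10, SE 0.13). The hinge protein gene Uqcrh had −0.18 (SE 0.27) and Uqcr11, a small subunit of the membrane part, −0.17 (SE 0.26).

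Levels can be compared between genes only per length, for which the deposited TPM was rescaled so that protein-coding transcripts sum to the same total in every library. On that scale Uqcr10 was the highest complex III gene, at 366 ± 142 in Fmr1-KO and 466 ± 188 in WT, and Uqcrb the lowest of Fmr1-KO, at 123 ± 49.1, against 158 ± 77.8 in WT. The order of levels was Uqcr10, Uqcr11, Uqcrh, Uqcrc1, Uqcrq, Uqcrc2, Uqcrfs1 and Uqcrb, by the mean over 16 libraries. Neighbours in that order differed by less than the larger of their SDs.

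Complex IV held all 10 genes on the lower side, with log2 fold changes of −0.59 to −0.15. Cox7a2, the widely expressed form of a small membrane subunit, had 28.9, 32.0 and 53.0 CPM (lowest, median and highest) in Fmr1-KO and 24.8, 51.1 and 115 CPM in WT. In 7 Fmr1-KO libraries Cox7a2 was below the WT median, and its 2 extreme libraries, WT replicates 6 and 3, were both shallow. The log2 fold change was −0.59 (SE 0.24, unadjusted p = 0.0225, adjusted p = 0.685, edgeR). Without WT replicate 3, Cox7a2 stood at −0.38, with an unadjusted p of 0.0657.

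Cox7b, another small membrane subunit and a gene on the X chromosome, had 8.59, 20.8 and 40.4 CPM in Fmr1-KO and 23.5, 34.7 and 48.3 CPM in WT. Fmr1-KO replicate 2 was the lowest library, and the ranges overlapped. Cox7b had a log2 fold change of −0.53 (SE 0.25, unadjusted p = 0.0473, adjusted p = 0.708, edgeR), and the omission of single libraries took the unadjusted p over 0.05 in 9 of 16 cases, to at most 0.109. Cox6c, a single-helix membrane subunit, had 31.8, 45.9 and 110 CPM in Fmr1-KO and 48.4, 68.3 and 107 CPM in WT, with the top value in Fmr1-KO replicate 5. Its log2 fold change was −0.46 (SE 0.25, adjusted p = 0.740).

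Cox8a, the widely expressed form of the smallest subunit, was the highest complex IV gene per length, at 1167 ± 255 rescaled TPM in Fmr1-KO and 1329 ± 220 in WT. By count it had 112, 137 and 244 CPM in Fmr1-KO and 134, 171 and 223 CPM in WT. The WT median was above 7 of the 8 Fmr1-KO libraries, yet the single highest library was Fmr1-KO replicate 5. On the log2 scale the fold change was −0.24 (SE 0.15, adjusted p = 0.778). Cox8b and Cox8c, the forms of muscle and testis, had no count in any library.

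The other complex IV genes followed at smaller distances. Cox4i1, the subunit that joins the mitochondrially encoded core early in assembly, was second per length, at 806 ± 214 rescaled TPM in Fmr1-KO and 976 ± 245 in WT, with a log2 fold change of −0.34 (SE 0.19). Cox7c and Cox6b1 (Cox6b1 lies on the side that faces cytochrome c) had −0.40 (SE 0.24) and −0.36 (SE 0.25). The matrix-side subunits Cox5a and Cox5b had −0.23 (SE 0.24) and −0.16 (SE 0.21), and Cox6a1 had −0.15 (SE 0.19). Per length the order was Cox8a, Cox4i1, Cox6a1, Cox6c, Cox6b1, Cox7c, Cox5a, Cox5b, Cox7a2 and Cox7b, from the mean over all libraries. The steps from Cox8a to Cox4i1 (357) and from Cox6a1 to Cox6c (259) exceeded the larger SD of the genes beside them (255 and 246), and the other steps did not.

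The ATP synthase genes are given here by the place of the subunit. The 2 large catalytic-head subunits, which alternate around the ring of F1, had log2 fold changes close to 0, and neither passed the test. Atp5b, the beta subunit that carries the catalytic sites, had 605, 710 and 898 CPM (lowest, median and highest) in Fmr1-KO and 460, 717 and 865 CPM in WT. The genotypes overlapped over most of their range, and the log2 fold change was 0.03 (SE 0.11, adjusted p = 0.969), with a negative sign without WT replicates 3 and 6. Atp5b was also the most abundant of the Atp5 genes per length, at 1063 ± 90.5 rescaled TPM in Fmr1-KO and 997 ± 182 in WT. Atp5a1, the alpha subunit, averaged 692 ± 63.2 CPM in Fmr1-KO, against 667 ± 56.5 CPM in WT, with a log2 fold change of 0.05 (SE 0.07). Per length, Atp5b stood 288 above Atp5a1 and Atp5a1 164 above Atp5g3, steps larger than the SDs beside them (at most 182 and 162), and Atp5h, Atp5d and Atp5e came next.

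The 3 subunits of the central stalk had negative log2 fold changes, none of which passed the threshold. Atp5e, the epsilon subunit at the foot of the stalk, had 9.35, 22.6 and 42.9 CPM in Fmr1-KO and 23.5, 34.9 and 50.2 CPM in WT. In 7 Fmr1-KO libraries Atp5e was below the WT median, and Fmr1-KO replicate 5 was again the exception. Its log2 fold change was −0.62 (SE 0.26, unadjusted p = 0.0271, adjusted p = 0.694, edgeR), and the unadjusted p was over 0.05 when Fmr1-KO replicate 6, Fmr1-KO replicate 7 or WT replicate 1 was omitted. Atp5c1, the gamma subunit that forms the rotating shaft, had 49.5, 84.8 and 125 CPM in Fmr1-KO and 75.2, 100 and 125 CPM in WT, with the lowest value in Fmr1-KO replicate 1. The log2 fold change of Atp5c1 was −0.24 (SE 0.16, adjusted p = 0.789), and that of Atp5d, the delta subunit, was −0.04 (SE 0.17), with a positive sign when any of 4 single libraries was left out.

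The peripheral stalk keeps the catalytic head from turning. Atp5h, its subunit d, had 34.5, 49.96 and 97.0 CPM in Fmr1-KO and 46.1, 79.0 and 115 CPM in WT. The top Atp5h library was WT replicate 3, followed by Fmr1-KO replicate 5. Its log2 fold change was −0.41 (SE 0.22, adjusted p = 0.740). The other stalk genes were nearer to 0, with −0.18 (SE 0.21) for Atp5j, coupling factor 6, −0.14 (SE 0.17) for Atp5f1, subunit b, and −0.09 (SE 0.18) for Atp5o, the subunit that links stalk and head.

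Subunit c forms the rotating membrane ring, and its mature protein is encoded by 3 genes, Atp5g1, Atp5g2 and Atp5g3, which differ in the import sequence. Atp5g3 made up 58.4% ± 3.45 of their summed rescaled TPM in Fmr1-KO and 60.5% ± 15.2 in WT (SD, n = 8 each). Atp5g1 made up 32.7% ± 5.14 in Fmr1-KO and 29.0% ± 11.8 in WT, and Atp5g2 8.84% ± 5.40 in Fmr1-KO and 10.5% ± 5.61 in WT. The order of the 3 genes was thus the same in both genotypes, and the shares differed by less than their SD.

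By count, Atp5g3 had 76.7, 107 and 178 CPM in Fmr1-KO and 62.4, 128 and 168 CPM in WT (log2 fold change −0.11, SE 0.18, adjusted p = 0.929). Atp5g1 had 56.0, 65.6 and 101 CPM in Fmr1-KO and 18.4, 76.6 and 114 CPM in WT (log2 fold change −0.18, SE 0.22, adjusted p = 0.909). Atp5g2 had 0.384, 14.1 and 34.0 CPM in Fmr1-KO and 0, 29.0 and 42.6 CPM in WT (log2 fold change −0.68, SE 0.52, adjusted p = 0.823). WT replicate 3 was the lowest library for all of them. The largest fold change of the 35 genes was thus also the least precise.

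Atp5g2 shares its sequence with another locus. The best aligned stretch of Gm10175, listed as protein-coding, was 100% identical to it, and the division of reads between them is uncertain. Gm10175 held counts equal to 74.4% of those of Atp5g2, 536 against 721 over all 16 libraries. Their sum was 32.8 ± 13.002 CPM in Fmr1-KO, against 42.7 ± 12.4 CPM in WT, and Gm10175 alone 16.3 ± 9.50 CPM in Fmr1-KO, against 17.1 ± 9.37 CPM in WT. A search of the transcripts for copies of at least 90% identity over at least 50% of a member found 28 copies of 10 members and none of the other 25. The counts of the copies equalled 5.40% of those of Atp5l, 3.31% of those of Atp5g1 and 1.19% of those of Atp5h, and less for the others apart from Atp5g2.

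Of the small membrane subunits at the dimer interface, Atp5j2 (subunit f) had a log2 fold change of −0.37 (SE 0.32), Atp5l (subunit g) −0.29 (SE 0.29) and Atp5k (subunit e) −0.21 (SE 0.40). Under limma on log2(TPM + 1), relative to the median of all genes, Atp5k and Atp5l had positive signs. The symbol rule also takes in Atp5s, which encodes coupling factor B and which RefSeq names Dmac2l. It takes in Atp5sl too, which the newer annotation names Dmac2 and which is no subunit of the enzyme. Atp5s averaged 11.3 ± 2.94 CPM in Fmr1-KO, against 9.40 ± 3.59 CPM in WT, the largest positive log2 fold change of the 35 genes at 0.24 (SE 0.32). Atp5sl stood at −0.12 (SE 0.20). Both were the lowest of the Atp5 genes per length, at 22.4 ± 5.30 rescaled TPM for Atp5s in Fmr1-KO and 17.9 ± 6.75 in WT.

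Transcript length set these genes apart from the rest of the transcriptome. The 35 genes had transcripts of 371 to 2475 bases, with a median of 716 and 22 genes under 800. The median over all other genes tested was 2902. Among all other genes, shorter transcripts also had lower values in Fmr1-KO. The median log2 fold change was −0.26 for 98 other genes under 600 bases and −0.36 for the 13 members of that length. It was −0.19 for 176 other genes of 600 to 800 bases and −0.34 for 9 members. At 800 to 1000 bases it was −0.11 for 290 others and −0.09 for 3 members, and at 1000 to 1500 bases −0.10 for 1043 others and −0.17 for 4 members. From 1500 to 3000 bases it was −0.03 for 3852 others and −0.03 for 6 members, and 5024 longer genes, among which there was no member, had 0.04. Of the other genes, 87.8% were lower under 600 bases, 77.8% at 600 to 800 and 68.6% at 800 to 1000. The shares were 64.7% at 1000 to 1500, 54.1% at 1500 to 3000 and 41.7% above. Members that were lower numbered 13 of 13 under 600 bases and 9 of 9 at 600 to 800.

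The members thus ran largely with the length classes, and under 800 bases their medians lay below those of the other genes. Atp5a1 and Atp5b, with positive log2 fold changes, are the longest members, and Atp5e, with one of the most negative, is among the shortest. Single members departed from this order. Cox7b, of 1001 bases, had −0.53, and Atp5k, the shortest at 371 bases, had −0.21. Spearman's correlation of length with log2 fold change was 0.645 across the 35 members and 0.206 across the 10483 other genes. These are descriptions across genes that share libraries, and no p is given.

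**Figure D4:**
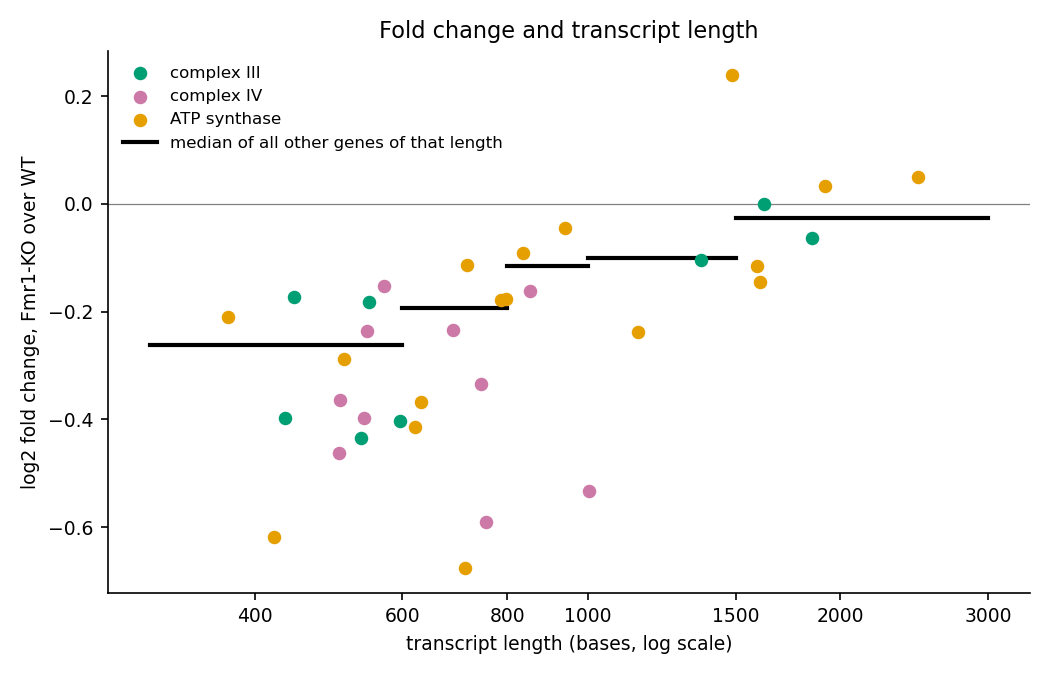
Log2 fold change, Fmr1-KO over WT, of the 35 genes against transcript length (log scale), with the median of all other genes of each length class as black bars. Both the members and the bars lie lower at short lengths, with bars at −0.26 under 600 bases and −0.03 from 1500 to 3000 bases.

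The share of counts on short transcripts also differed between libraries. Other genes with transcripts under 800 bases, without the 35, took 1.22%, 1.42% and 2.41% of the protein-coding counts (lowest, median and highest) in Fmr1-KO and 1.30%, 1.79% and 2.53% in WT. The means were 1.56% ± 0.407 in Fmr1-KO and 1.87% ± 0.442 in WT (SD, n = 8 each). The libraries with the 4 highest sums of the 35 genes, Fmr1-KO replicate 5 and WT replicates 8, 1 and 2, were among the 5 with the highest share of other short transcripts. WT replicate 3, with a share of 2.17% and a member sum of 3116 CPM, was the one that departed.

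With this share as a covariate, a fit chosen after seeing the data, 20 of the 35 genes were lower in Fmr1-KO and their median was −0.02. The medians were then 0.02 for complex III, −0.04 for complex IV and −0.01 for ATP synthase, against −0.18, −0.35 and −0.18 without it. Among the 35, 0 passed by edgeR in that fit and 0 were lower at an unadjusted p under 0.05, against 2.67% of all genes. Cox7a2 stood at −0.22, Cox7b at −0.29 and Atp5e at −0.35. The other short genes that make up the share include partners of the 35, such as Ndufa12 (614 bases) and Atpif1 (535 bases). This fit therefore cannot tell transcript length apart from a level shared among respiratory genes. The difference between transcript length and effective length, which reflects the fragment length of a library, was 228 ± 4.67 bases in Fmr1-KO and 231 ± 4.48 bases in WT. The difference of −3.06 bases did not pass an exact two-sided permutation test (p = 0.201, n = 8 each), and without WT replicates 3 and 6 it was −5.00 bases (exact permutation p = 0.0433). The part of these library properties in the levels of the 35 genes was not tested.

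**Figure D5:**
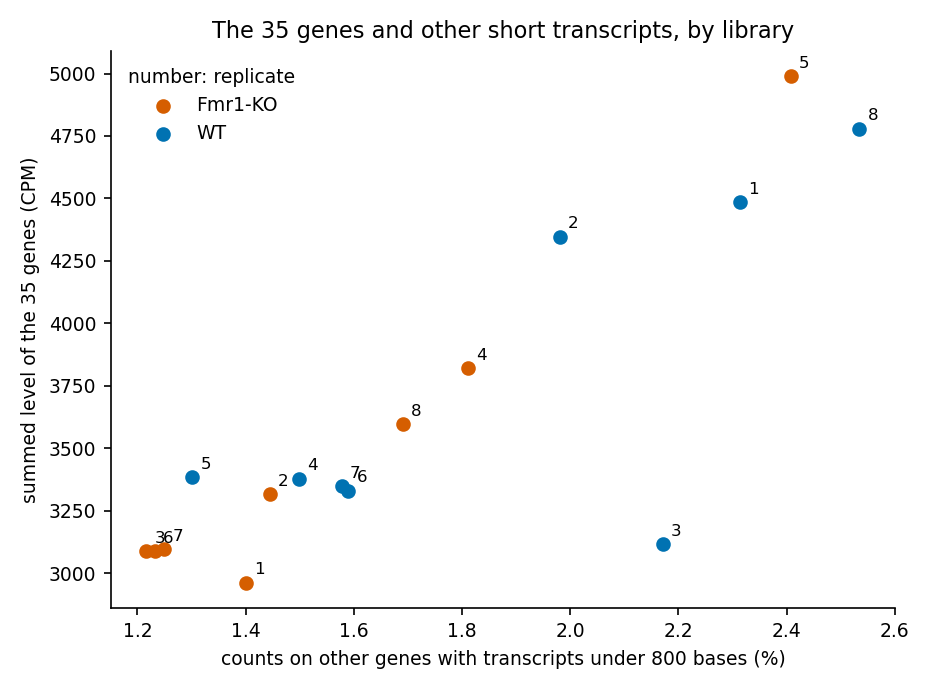
Summed CPM of the 35 genes against the percentage of protein-coding counts on other genes with transcripts under 800 bases, 1 point per library with its replicate number (Fmr1-KO orange, WT blue). Fmr1-KO replicate 5 and WT replicates 1, 2 and 8 lie at the upper right, and WT replicate 3 lies at the lower right.

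The partners of these genes in the same machines were examined from lists of known subunits and assembly factors. The 6 mitochondrially encoded subunits of complexes III and IV and ATP synthase, which are not spliced and are made inside the organelle, were all lower (median log2 fold change −0.27), and 0 were past the threshold. Together they reached 11718 to 19147 CPM in Fmr1-KO, against 12693 to 30166 CPM in WT, the last in WT replicate 3. mt-Cytb, the cytochrome b of complex III, averaged 2123 ± 319 CPM in Fmr1-KO, against 2674 ± 912 CPM in WT (log2 fold change −0.33, SE 0.15, unadjusted p = 0.0369, adjusted p = 0.704, edgeR). mt-Co2, the subunit of complex IV that accepts electrons from cytochrome c, averaged 2116 ± 587 CPM in Fmr1-KO, against 2713 ± 838 CPM in WT (log2 fold change −0.36, SE 0.17, unadjusted p = 0.0459, adjusted p = 0.708, edgeR).

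All 6 listed additional subunits and assembly factors of ATP synthase were lower as well, with a median of −0.28 and 0 past the threshold. Atpif1, the inhibitor that blocks ATP hydrolysis by the enzyme, averaged 23.0 ± 10.4 CPM in Fmr1-KO, against 37.2 ± 17.7 CPM in WT (log2 fold change −0.74, SE 0.30, unadjusted p = 0.0202, adjusted p = 0.685, edgeR). Of the assembly factors of complex III 2 of 6 were lower (median 0.04), and of those of complex IV 9 of 19 (median 0.00). Without WT replicates 3 and 6 these counts were 4 of 6 (median −0.07) and 13 of 21 (median −0.05). Cyc1, the cytochrome c1 of complex III, stood at 94.6 ± 23.9 CPM in Fmr1-KO, against 92.2 ± 23.8 CPM in WT, and Cycs, cytochrome c itself, at 54.6 ± 15.9 CPM in Fmr1-KO, against 64.1 ± 28.8 CPM in WT. Cox7a2l and Ndufa4, further subunits or partners of complex IV, had −0.16 (SE 0.15) and −0.23 (SE 0.23).

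Complex I, where electrons from NADH enter, had 31 of 36 nuclear subunits lower, with a median of −0.17, and complex II, which is also part of the citrate cycle, 3 of 7 lower, with a median of 0.00. Ndufa12, an accessory subunit of complex I, averaged 30.2 ± 7.85 CPM in Fmr1-KO, against 41.5 ± 11.4 CPM in WT (log2 fold change −0.49, SE 0.20, adjusted p = 0.685, edgeR). Of the citrate cycle, 10 of 14 genes were lower with a median of −0.02, of glycolysis 11 of 16 with −0.03, and of the mitochondrial carriers 4 of 8 with −0.01. Among the glycolysis genes, Ldhb, a lactate dehydrogenase subunit, averaged 162 ± 29.4 CPM in Fmr1-KO, against 205 ± 48.6 CPM in WT (log2 fold change −0.34, SE 0.13, unadjusted p = 0.0175, adjusted p = 0.685, edgeR). Aldoc, the aldolase of astrocytes in brain, averaged 258 ± 34.2 CPM in Fmr1-KO, against 309 ± 77.1 CPM in WT (log2 fold change −0.26, SE 0.12, unadjusted p = 0.0429, adjusted p = 0.708, edgeR). Ogdh, a citrate cycle enzyme, was on the higher side at 287 ± 22.7 CPM in Fmr1-KO, against 255 ± 29.7 CPM in WT (log2 fold change 0.18, SE 0.08, adjusted p = 0.708, edgeR). The regulators of mitochondrial gene expression had 6 of 11 lower and a median of −0.15, and 5 of 11 lower with a median of 0.0099 without WT replicates 3 and 6. Nrf1, the factor whose letters were searched above, averaged 27.5 ± 5.91 CPM in Fmr1-KO, against 50.2 ± 54.1 CPM in WT, where WT replicate 6 had 177 CPM and the other 7 libraries averaged 32.1 ± 18.0 CPM. Gabpa, the DNA-binding subunit of GABP, averaged 23.6 ± 7.48 CPM in Fmr1-KO, against 29.0 ± 5.06 CPM in WT. In all of these lists 0 genes passed the threshold.

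Markers of non-neuronal cells were also lower in Fmr1-KO on average, with none at 0 in every library. The endothelial and pericyte markers (6 of 6 lower, median −0.74) summed to 52.6 to 143 CPM in Fmr1-KO and 76.4 to 358 CPM in WT. The astrocyte markers (5 of 6 lower, median −0.35) summed to 477 to 595 CPM in Fmr1-KO and 443 to 1649 CPM in WT. The microglial markers (6 of 6 lower, median −0.29) summed to 155 to 268 CPM in Fmr1-KO and 197 to 533 CPM in WT, and in these 3 lists the highest library was WT replicate 3. The oligodendrocyte markers (6 of 6 lower, median −0.33) summed to 238 to 457 CPM in Fmr1-KO and 223 to 636 CPM in WT. The excitatory neuron markers (2 of 5 lower, median 0.00) summed to 8097 to 9173 CPM in Fmr1-KO and 8008 to 10714 CPM in WT. The interneuron markers (6 of 8 lower, median −0.06) summed to 292 to 607 CPM in Fmr1-KO and 268 to 590 CPM in WT. Markers of the neighbouring dentate gyrus and CA3 averaged 196 and 39.4 CPM in Fmr1-KO and 196 and 46.0 CPM in WT. Lct alone supplied 185 CPM of the dentate sum in Fmr1-KO and 180 CPM in WT. Of the 6 genes listed for each of these neighbours, 2 passed the filter on low counts. Fmr1-KO replicate 5, the library highest in complex IV, had 477 CPM of astrocyte and 78.0 CPM of endothelial markers, the lowest astrocyte sum of the Fmr1-KO libraries. Without WT replicates 3 and 6 the median was −0.34 for the endothelial and pericyte markers, −0.09 for the astrocyte, −0.09 for the microglial and −0.32 for the oligodendrocyte markers, and −0.18 for the mitochondrially encoded subunits. The part of cell composition in the levels of the 35 genes was not tested.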

How the data were processed

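RNA of CA1 from 16 mice (8 Fmr1-KO, 8 WT), a library per labelled animal, was quantified by the authors per transcript. FastQC, cutadapt, kallisto and DESeq2 were used per the submitters' processing notes. Their versions, the build and the index were not given in the sources used here. The deposited estimated counts are reads shared among transcripts by a model, and the deposited TPM values are scaled by effective length within each library, so they hold no depth. Lengths and effective lengths were deposited too.

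Estimated counts of protein-coding transcripts were summed by symbol, rounded, and tested with edgeR 4.0.16 in R 4.3.3 (quasi-likelihood test, TMM, filterByExpr with a minimum count of 10, no covariate, Benjamini-Hochberg, threshold 0.05). SE is the size of the log2 fold change divided by the square root of F. CPM is TMM-normalised. Alternatives used DESeq2 1.42.0 (without independent filtering), limma 3.58.1, other scalings and filters, and the omission of libraries. Permutation tests used SciPy 1.17.1, copies came from BLAST+ 2.17.0 on GENCODE M21 transcripts (GRCm38), and promoters from RefSeq (GRCm38.p6). p-values measure the spread between libraries taken as separate animals, although some labels within a genotype share an animal number and differ only in a letter.

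The members, lists and alternatives were chosen with earlier results of these data known. Ranges over libraries are given for the 3 genes with the smallest p and the highest per length in each complex and for the subunit c genes, and other lists name up to 2 genes each, those with the smallest p. Marker lists not detailed are given by their sums. Replicate numbers follow label order and pair nothing. Total counts ranged from 515103 to 3275003, which limits the precision of low genes.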

Additional observations from a re-analysis of the deposited data

Results flagged for a closer look

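In 8 of 80 groups examined, 1 library lay far from the other 7 of its genotype (Dixon's 95% criterion). Chance alone flags about 1 group in 20 where groups are independent. The groups here share the same libraries, so the number flagged cannot be set against that rate. Fmr1-KO replicate 5 was the library that stood out in 7 of them, with the highest value each time. In it Uqcrc1 reached 208 CPM (next Fmr1-KO library 169), Cox5b 105 CPM (next 62.6), Cox7c 91.8 CPM (next 58.6) and Cox8a 244 CPM (next 160). Atp5f1 reached 187 CPM in it (next 119), Atp5g3 178 CPM (next 124), and the summed level of complex IV 1297 CPM (next 884). The other was WT replicate 8, in which Cox5b reached 105 CPM (next WT library 70.3). Both libraries also had high shares of other short transcripts, 2.41% in Fmr1-KO replicate 5 and 2.53% in WT replicate 8.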

How the results depend on the processing

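No member passed the threshold under any fit of the counts, and the number lower in Fmr1-KO stayed between 24 and 33 except with the share of short transcripts as covariate (20, added later, cause not tested). Genes past the threshold numbered 0 under log2(TPM + 1) and 0 under log2(TPM + 0.1), where the median of all genes shifted by 0.55 and 0.64 and Fmr1 had −1.68 (adjusted p = 0.442, limma) and −1.83 (adjusted p = 0.430, limma). These values and the numbers lower are relative to that median. The p-values and the counts past the threshold of both TPM fits test the fold change before the shift is removed. They do not test the values printed. The fragment length difference was −5.00 bases without WT replicates 3 and 6. Limma-voom with quality weights gave a median of −0.39. No paired analysis was possible because the replicate numbers follow label order and no animal number is shared between genotypes. Within each genotype, several libraries share an animal number and differ in a letter, B or D, which the labels do not explain. The tests treated these libraries as independent. All Fmr1-KO animal numbers come before all WT numbers, so anything tied to number or order cannot be told apart from genotype. With the letter as a covariate, 32 members were lower in Fmr1-KO, with a median of −0.22 and 0 past the threshold.

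Single genes changed sign between settings, and the cause was not tested. Not all were near 0 in the edgeR fit of all libraries, where Uqcrb had −0.43, Uqcrq −0.40, Uqcr10 −0.40 and Atp5l −0.29. Atp5b was −0.066 with quality weights and −0.066 without WT replicates 3 and 6. Uqcrc1 was 0.0010 with no filter and 0.0028 with the CPM filter. Under log2(TPM + 1), Uqcrb was 0.091, Uqcrc1 0.074, Uqcrc2 0.064, Uqcrq 0.15, Atp5d 0.0095, Atp5g1 0.36, Atp5k 0.39 and Atp5l 0.065. Under log2(TPM + 0.1), Uqcrb was 0.42, Uqcrq 0.090, Atp5g1 0.33, Atp5k 0.72 and Atp5l 0.0072. With the covariate, Uqcr10 was 0.075, Uqcr11 0.15, Uqcrc1 0.063, Uqcrh 0.11, Cox5a 0.024, Cox5b 0.051, Cox6a1 0.16, Atp5d 0.14, Atp5g1 0.0070, Atp5g3 0.029, Atp5j 0.014 and Atp5o 0.14. Leaving out each library in turn gave −0.32 to 0.026 for Uqcr11, −0.080 to 0.056 for Uqcrc1, −0.17 to 0.0057 for Uqcrc2, −0.034 to 0.084 for Atp5b and −0.15 to 0.028 for Atp5d. Uqcrb, Atp5g2 and Atp5k had no count in WT replicate 3, while WT replicate 6, with lower total counts, had 21.3, 28.4 and 17.7 CPM. WT replicate 3 had the fewest protein-coding genes detected of all libraries, 10461 against 11586 in WT replicate 6. The reason for these absent counts was not tested.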
